A study of Mus musculus with 26 samples.

Results

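The left ventricle of normotensive mice given Cmpd17b was compared with that of normotensive mice given vehicle. Cmpd17b is a small-molecule agonist of formyl peptide receptors. Members were chosen by their labels alone: every batch 1 library of the strain BPN/3J, which came to 10 of the 26 libraries of the series, 5 from mice on Cmpd17b and 5 from mice on vehicle. The 2 BPN/3J vehicle libraries of batch 2 were left out, because batch 2 holds no treated BPN/3J library.

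BPN/3J is the inbred line with normal blood pressure that serves as control for BPH/2J, a line with hypertension of neurogenic origin. Adult BPN/3J mice received Cmpd17b intraperitoneally at 50 mg/kg per day for 28 days, or vehicle, with blood pressure followed by radiotelemetry, and polyadenylated RNA of the ventricle was then sequenced as paired reads. Each library title names a different animal, so that the 10 libraries were taken as 10 mice. The labels used here state neither sex nor age in weeks, and neither the composition of the vehicle nor the hour of tissue collection. The 10 BPH/2J libraries of batch 1 (5 on Cmpd17b and 5 on vehicle, at the same dose and duration) served for the comparison of strains at the end.

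Formyl peptide receptors are G protein-coupled receptors, carried chiefly by neutrophils, monocytes and macrophages, that were named for their response to formylated peptides of bacteria and mitochondria. They couple to inhibitory G proteins, and beta-arrestins end or redirect the signal. Depending on the ligand they drive leukocyte migration and cytokine release, or the resolution of inflammation, for which annexin A1 is the best known endogenous agonist. In a ventricle without pressure overload, the comparison asks what repeated dosing with the agonist leaves in the transcriptome on top of the resting state.

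The markers fitted the labelled tissue. The ventricular myosin genes Myh6 and Myl2 lay between 15899.6 and 22404 CPM (counts scaled to a common library size) and between 7949 and 10428 CPM. The atrial genes Myl7 and Sln lay between 0 and 1.45 and between 0 and 0.85 CPM. Total counts ran from 28498700 to 42046500 per library, of which 31.2% to 38.7% came from the mitochondrial genome. Traces of other organs varied between libraries: the summed level of 16 kidney tubule markers ran from 4.65 to 213 CPM, with the highest values in Cmpd17b replicate 1 (213) and vehicle replicate 2 (174), and that of 15 hepatocyte markers from 30.6 to 143 CPM, the highest again in vehicle replicate 2.

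Vehicle replicate 5 stood apart from the other 9 libraries. It had 241 genes more than 1 log2 unit above every other library and 499 genes more than 1 below, against 0 to 9 and 3 to 38 genes in the others. Ranked by level, its genes correlated with those of another library at 0.955 (median Spearman rho), against 0.988 to 0.992 elsewhere, and limma's voom gave it a quality weight of 0.0941 against 0.57 to 1.83. The summed level of 14 endothelial markers was 3693 CPM in it and 1524 to 1708 CPM elsewhere. Vehicle replicate 1 had the next lowest weight (0.57) and was the highest library for several of the genes described below. Many of the differences below were smaller without these libraries, and values without 1 or both of them stand beside those from all 10.

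**Figure D1:**
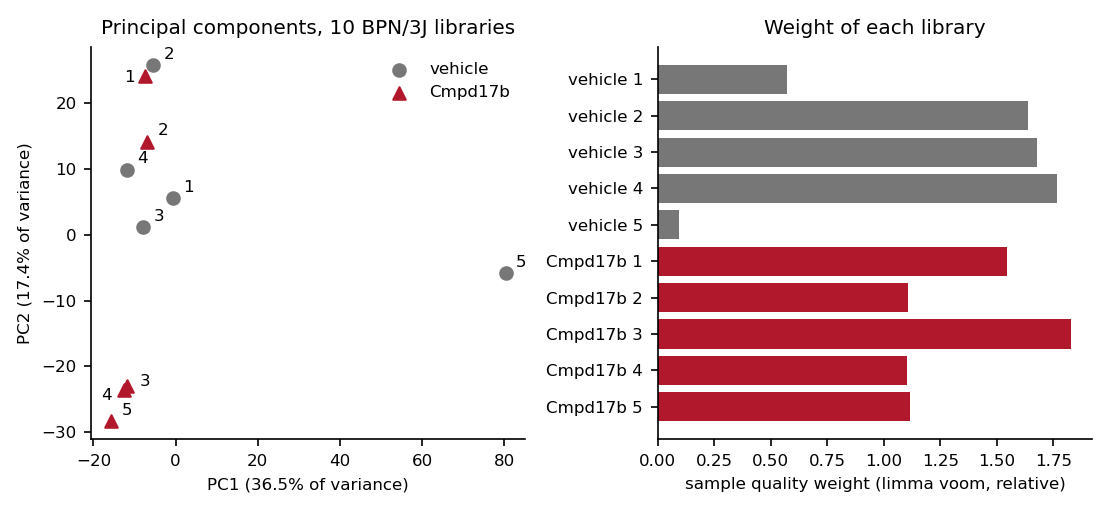
Left, the first 2 principal components of log2 CPM of the 10 BPN/3J libraries (circles, vehicle, and triangles, Cmpd17b, each with its replicate number, axes with the percentage of variance). Right, the relative quality weight of each library from limma voom. Vehicle replicate 5 lies alone at 80.3 on the first component with a weight of 0.0941, and Cmpd17b replicates 3, 4 and 5 lie lowest on the second component.

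No gene passed the threshold of the test. Of 14547 genes tested with edgeR's quasi-likelihood test, 0 were higher (0%) and 0 lower (0%) with Cmpd17b at an adjusted p under 0.05, and the smallest adjusted p was 0.688. At an unadjusted p under 0.05 there were 259 genes higher (1.78%) and 518 lower (3.56%), together close to the 727 (5% of those tested) that this threshold passes where no gene differs. The Wald test of DESeq2 called 0 genes (smallest adjusted p 0.229), and limma voom with sample quality weights called 0 (smallest adjusted p 0.053). Without vehicle replicate 5, edgeR also called 0 of 14718, with 332 genes higher (2.26%) and 359 lower (2.44%) at an unadjusted p under 0.05.

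The width of the intervals shows how closely the difference of a single gene was estimated. It is not adjusted for the number of genes, so it is not the size needed to pass the threshold. For the 11523 genes with an average of at least 1 log2 CPM, the 95% interval of the log2 difference reached 0.29 to either side of the estimate at the median, a ratio of 1.23. Without vehicle replicate 5 the median reach was 0.21. A difference of more than 1 log2 unit was estimated for 82 genes, of which 9 had an average of at least 1 log2 CPM. In 92 genes (0.632%) all Cmpd17b libraries lay above all vehicle libraries, and in 64 genes (0.44%) all lay below.

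Everything that follows describes genes that did not pass the threshold. All log2 differences are Cmpd17b minus vehicle, with the standard error (SE), and p under 0.05 in a count refers to the unadjusted p of edgeR. A count in a list is to be read beside the share over all genes, which was 1.78% higher and 3.56% lower with all libraries. Without vehicle replicate 5 it was 2.26% and 2.44%. Without vehicle replicate 1, 240 of 14650 genes were higher and 588 lower. Without vehicle replicates 1 and 5, 306 of 14844 were higher and 315 lower. The adjusted p of edgeR was 0.688 or more for each gene named, so that p-values of single genes are not repeated. Levels are CPM scaled by the trimmed mean of M-values (TMM), given for vehicle replicates 1 to 5 and then for Cmpd17b replicates 1 to 5. Because the RNA is from whole tissue, fewer cells of a type and less RNA per cell cannot be told apart in any of these values.

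**Figure D2:**
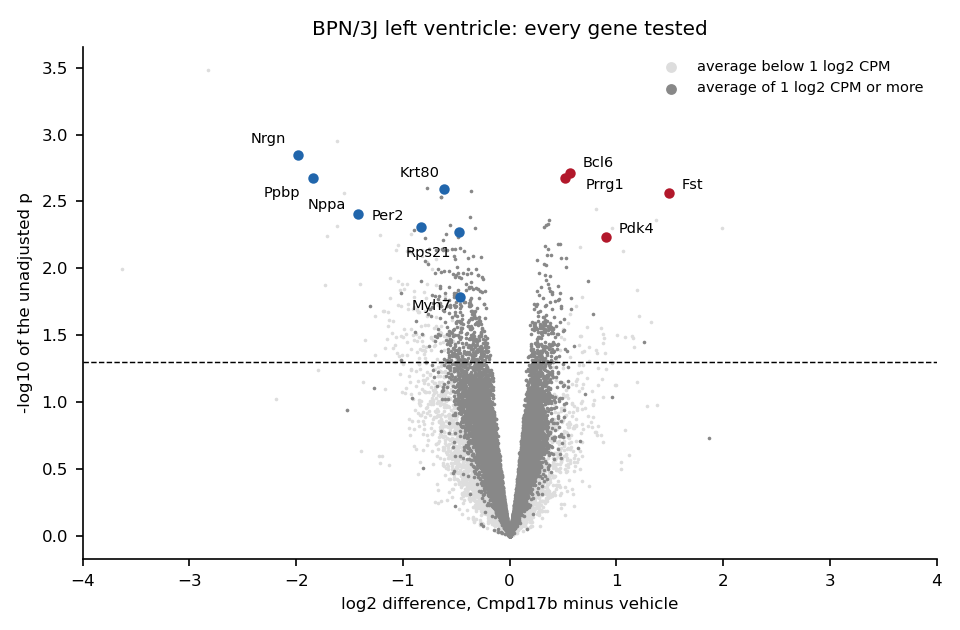
Each point is 1 of the 14547 genes tested, with the log2 difference (Cmpd17b minus vehicle) on the x axis and -log10 of the unadjusted p on the y axis. The dashed line marks an unadjusted threshold of 0.05. The labelled genes are coloured, and none of the genes passed the threshold after adjustment.

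The receptors themselves were at the edge of detection. Fpr1 read 0, 0, 0.157, 0.218 and 0 CPM with vehicle and 0.0783, 0.234, 0.147, 0.172 and 0.166 CPM with Cmpd17b, from 41 counts in the 10 libraries together. Fpr2, the receptor of annexin A1 and lipoxin A4, read 0.274, 0.0341, 0.126, 0.164 and 0.181 CPM with vehicle and 0.13, 0.167, 0.322, 0.295 and 0.221 CPM with Cmpd17b, from 69 counts. The groups overlapped for both genes, and neither passed the filter on low counts, so that no test was made. The 3 related genes Fpr3, Fpr-rs3 and Fpr-rs4 had 0, 0 and 1 counts in all. The mean of Fpr1 was 0.0751 ± 0.105 CPM with vehicle and 0.159 ± 0.056 CPM with Cmpd17b, and that of Fpr2 was 0.156 ± 0.0871 and 0.227 ± 0.0816 CPM (SD, n = 5 each).

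Anxa1, which encodes annexin A1, read 28.9, 21.9, 16.3, 20.1 and 36.1 CPM with vehicle and 23.6, 17.7, 22.5, 27.1 and 24.003 CPM with Cmpd17b. All treated values lay inside the vehicle range, and the log2 difference was -0.10 ± 0.19 (SE), with a 95% interval from -0.51 to 0.31. Without vehicle replicate 5 it was 0.08. Of the 16 tested genes for formyl peptide receptors, resolution mediators and the receptors by which phagocytes take up dying cells, 0 had p under 0.05, 12 had a negative and 4 a positive difference, and the median was -0.13 beside -0.01 for all genes. The median was -0.06 without vehicle replicate 5, and -0.03 with 9 negative without vehicle replicates 1 and 5. The smallest p of the list belonged to Mfge8, the bridge between apoptotic cells and phagocytes (-0.22 ± 0.12, and -0.07 without both).

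Of the 30 genes for the G proteins, arrestins and kinases downstream of the receptors, 1 had p under 0.05 and a lower level. This was Arrb2, encoding beta-arrestin 2, at 10.7 ± 2.19 CPM with vehicle and 8.42 ± 0.581 CPM with Cmpd17b (SD, n = 5 each). Its log2 difference was -0.35 ± 0.14, -0.24 without vehicle replicate 5 and -0.14 without vehicle replicates 1 and 5. Gnai1, an inhibitory G protein alpha subunit, had 1.93 ± 0.441 CPM with vehicle and 2.57 ± 0.311 CPM with Cmpd17b (SD, n = 5 each), a log2 difference of 0.41 ± 0.19. The median of this list was -0.11 with all libraries and 0.00 without vehicle replicate 5.

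The genes by which a ventricle reports wall stress held some of the widest differences among well expressed genes. Nppa encodes atrial natriuretic peptide, which ventricular myocytes make in fetal life and again under load. It read 839, 163, 269.7, 278 and 653 CPM with vehicle and 189, 193, 195, 174 and 73.9 CPM with Cmpd17b. Of the treated libraries, 4 were nearly equal, replicate 5 lay below them, and vehicle replicates 1 and 5 lay far above every other library while vehicle replicate 2 lay among the treated ones. The log2 difference was -1.42 ± 0.41. It was -1.05 without vehicle replicate 1, -1.23 without vehicle replicate 5, and -0.52 without both. The summed level of 8 atrial markers, Nppa included, was 229 to 903 CPM with vehicle and 154 to 276 CPM with Cmpd17b. Nppa itself was 839 of the 903 CPM in vehicle replicate 1, so that the sum largely repeats its values. Of the 5 tested, 3 had a negative and 2 a positive difference, and 2 had p under 0.05 with a lower level. These were Nppa and Myl4, the atrial light chain (-0.79, and -0.93 without vehicle replicates 1 and 5). The median was -0.49, and -0.11 without vehicle replicates 1 and 5. The defining markers Myl7 and Sln lay at or below 0.239 and 0.136 CPM except in vehicle replicate 3 (1.45 and 0.85 CPM). The part of atrial tissue in the Nppa values was not tested.

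Nppb, encoding B-type natriuretic peptide, read 596, 304, 242, 271 and 237 CPM with vehicle and 192, 212, 233, 267 and 208 CPM with Cmpd17b. Vehicle replicate 1 stood far above the rest of its group, and 4 of 5 treated libraries lay below all vehicle libraries. The log2 difference was -0.57 ± 0.23, and -0.24 without vehicle replicate 1. It was -0.29 without vehicle replicates 1 and 5 together.

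Ankrd1 encodes a titin-bound ankyrin repeat protein that responds to stretch. It read 725, 383, 347, 409 and 308 CPM with vehicle and 392, 218, 223, 311 and 233 CPM with Cmpd17b. Vehicle replicate 1 was again the highest, and 3 of 5 treated libraries lay below the vehicle range. The log2 difference was -0.66 ± 0.24, and -0.39 without vehicle replicate 1.

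Myh7, the slow myosin heavy chain of the fetal ventricle, read 1301, 1281, 1369.5, 1313 and 2129 CPM with vehicle and 1006, 1412, 1001, 966 and 960.1 CPM with Cmpd17b. Here vehicle replicate 5 stood high and Cmpd17b replicate 2 lay inside the vehicle range, while the other treated libraries lay below it. The log2 difference was -0.47 ± 0.17. It was -0.30 without vehicle replicate 5 and -0.31 without vehicle replicates 1 and 5. Myh6, the adult fast isoform, had a difference of -0.08 ± 0.13.

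Of the 25 tested genes of the wall stress and fetal list, 7 had p under 0.05 with a lower level and 0 with a higher one. The list's median difference was -0.26, and 18 of 25 differences were negative, where 7519 of the 14547 genes tested were negative. Skeletal actin, Acta1, was not among the 7 (-0.27 ± 0.18, and -0.16 without vehicle replicate 1). Without vehicle replicate 1 the list had 2 genes with p under 0.05, without vehicle replicate 5 it had 8, and without both it had 5 lower and 1 higher, with a median of -0.16. Of the 22 sarcomere genes 0 had p under 0.05, with a median of -0.04, and 0.02 without vehicle replicate 1.

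**Figure D3:**
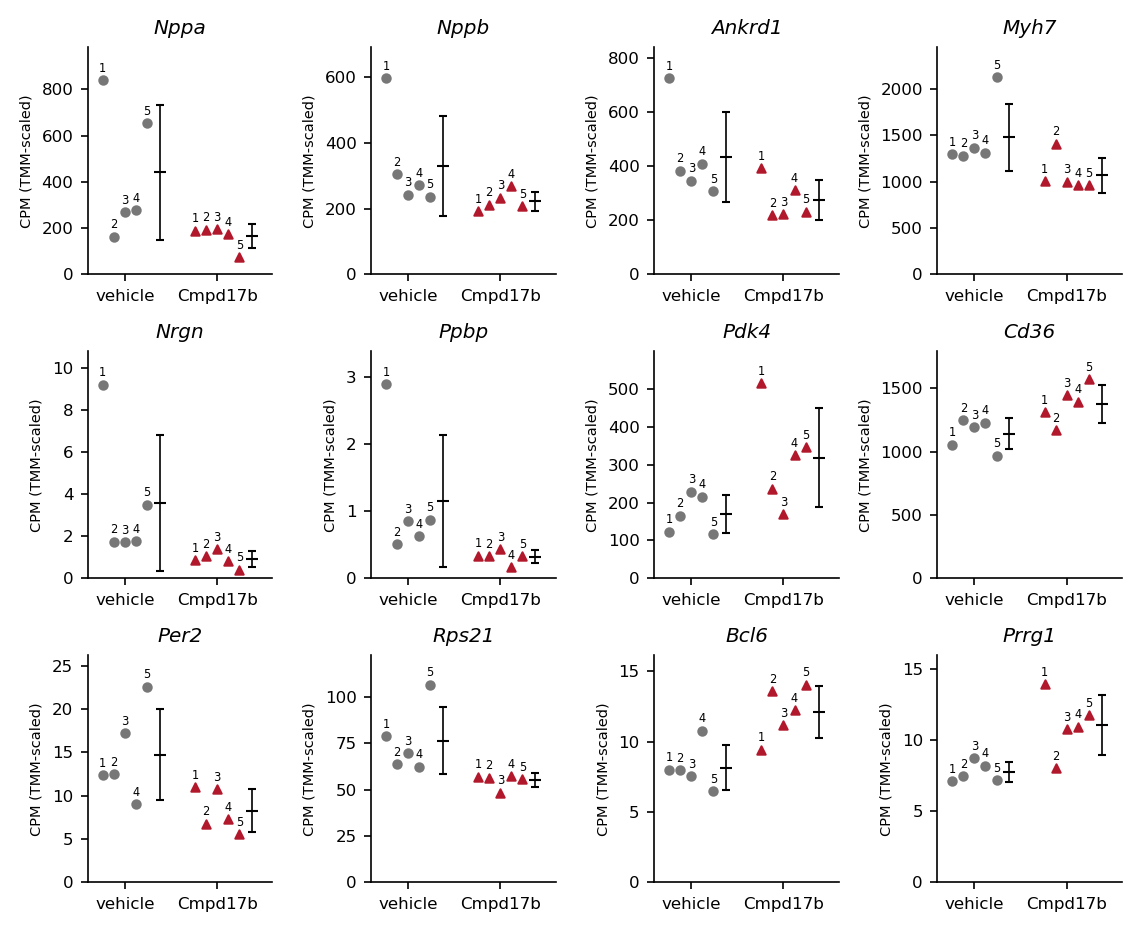
Level of 12 genes in each of the 10 libraries, in TMM-scaled CPM on axes that start at 0 (circles, vehicle, and triangles, Cmpd17b, each with its replicate number). The bar beside each group shows the mean and SD of 5 mice. Vehicle replicate 1 is the highest library for Nppa, Nppb, Ankrd1, Nrgn and Ppbp, and vehicle replicate 5 for Myh7, Per2 and Rps21.

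The gene with the smallest p among those with an average of at least 1 log2 CPM was Nrgn, which encodes neurogranin, a calmodulin-binding protein of neurons that is also abundant in platelet RNA. It read 9.21, 1.74, 1.73, 1.77 and 3.50 CPM with vehicle and 0.861, 1.07, 1.41, 0.835 and 0.415 CPM with Cmpd17b. All 5 treated libraries lay below all vehicle libraries, and vehicle replicate 1 was far above its own group. The log2 difference was -1.98 ± 0.49, and -0.93 without vehicle replicates 1 and 5.

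Ppbp, the platelet basic protein that is stored in alpha granules, showed the same order of groups. It read 2.89, 0.512, 0.850, 0.628 and 0.875 CPM with vehicle and 0.339, 0.335, 0.440, 0.172 and 0.332 CPM with Cmpd17b. The groups did not overlap. On the log2 scale the difference was -1.84 ± 0.48, and -1.04 without vehicle replicates 1 and 5. Itga2b, the alpha subunit of the platelet fibrinogen receptor, read 4.61, 0.785, 0.881, 1.45 and 2.38 CPM with vehicle and 0.443, 1.00, 0.908, 0.590 and 0.387 CPM with Cmpd17b. Its groups overlapped, and the log2 difference of -1.62 ± 0.48 became -0.65 without both vehicle libraries.

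A list of 16 platelet genes was written after these values had been seen, so that its counts only describe them. Of its 8 tested members, 8 had a negative difference, 3 had p under 0.05 and 2 did not overlap between the groups. Over all genes, 3.56% were lower with p under 0.05 and 0.44% lay wholly below the vehicle libraries. The summed level of the 16 genes was 39.3, 12.6, 12.1, 13.8 and 22.3 CPM with vehicle and 8.95, 11.3, 13.3, 10.5 and 10.4 CPM with Cmpd17b. Vehicle replicates 1 and 5 again lay highest, and the other 3 vehicle libraries overlapped the treated ones. The platelet chemokine Pf4 had -0.47 with all libraries and 0.04 without those 2. The median of the 8 genes went from -0.55 to -0.13, with 4 negative, without both. Globin transcripts, which come from red cells, were lowest in vehicle replicate 1 (657 CPM) and highest in vehicle replicate 5 (2296 CPM), with 825 to 1596 CPM in the others. How much residual blood contributed to these genes was not tested.

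Genes of fatty acid use had mostly positive differences. Pdk4, the kinase that switches off pyruvate dehydrogenase and spares glucose when fatty acids are burnt, read 123, 165, 229, 215 and 117 CPM with vehicle and 515, 237, 169, 325 and 346 CPM with Cmpd17b. In all, 4 of 5 treated libraries lay above every vehicle library, and Cmpd17b replicate 3 lay within the vehicle range. On the log2 scale the difference was 0.91 ± 0.28, which is a ratio of 1.87. It was 0.80 without vehicle replicate 5.

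Cd36, the fatty acid translocase of the myocyte membrane, read 1056, 1252, 1197, 1229 and 970.0 CPM with vehicle and 1310.4, 1171, 1446, 1395 and 1573 CPM with Cmpd17b. Only Cmpd17b replicate 2 lay inside the vehicle range. On the log2 scale the difference was 0.27 ± 0.12, 0.22 without vehicle replicate 5 and 0.17 without vehicle replicates 1 and 5.

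Ucp3, a mitochondrial carrier induced by fatty acids, read 11.1, 9.77, 28.4, 31.2 and 30.0 CPM with vehicle and 57.3, 22.3, 22.6, 53.8 and 24.1 CPM with Cmpd17b. Both groups were split, with Cmpd17b replicates 1 and 4 high and vehicle replicates 1 and 2 low, and the difference was 0.71 ± 0.38. Ehhadh, the peroxisomal bifunctional enzyme, had 0.39 ± 0.16 (0.21 without vehicle replicates 1 and 5), and Decr1, which handles unsaturated fatty acids in mitochondria, 0.24 ± 0.11. Angptl4, an inhibitor of lipoprotein lipase, had 0.22 ± 0.52 (0.72 without vehicle replicate 5), with vehicle values from 1.95 to 15.5 CPM and treated values from 3.96 to 15.6 CPM.

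Of 49 tested genes of fatty acid oxidation and lipid handling, 44 had a positive difference, 2 had p under 0.05 (Pdk4 and Cd36) and the median was 0.18. Without vehicle replicate 5, 41 of 49 were positive, 3 had p under 0.05 and the median was 0.11. Without vehicle replicates 1 and 5 it was 0.08. Of 15 targets of the fatty acid receptor PPAR alpha, 14 were positive with a median of 0.22, and 0.14 without vehicle replicate 1 or without vehicle replicate 5. Of the 13 protein genes of the mitochondrial genome 12 were positive and 2 had p under 0.05, with a median of 0.14. Without vehicle replicate 1 the median was 0.07 and 0 had p under 0.05. The 74 nuclear genes for subunits of the respiratory chain had a median of -0.10, and 53 of them were negative. This turned to a median of 0.05 with 57 positive without vehicle replicates 1 and 5. Glycolysis and glucose use turned its sign, from a median of 0.08 over 42 genes to -0.03 without vehicle replicate 5.

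Several clock genes that peak in the same phase had negative differences. Per2, a repressor of the molecular clock, read 12.3, 12.5, 17.2, 9.06 and 22.6 CPM with vehicle and 11.0, 6.79, 10.8, 7.32 and 5.53 CPM with Cmpd17b. Vehicle replicate 4 lay among the treated libraries and vehicle replicate 5 was the highest. On the log2 scale the difference was -0.83 ± 0.25, and -0.62 without vehicle replicate 5.

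Dbp, an output factor of the clock, read 110.5, 89.0, 172, 89.9 and 176 CPM with vehicle and 119, 58.2, 102, 88.2 and 56.8 CPM with Cmpd17b, a difference of -0.59 ± 0.25. The groups overlapped, and vehicle replicates 3 and 5 were high for Dbp as for Per2. Per3 (-0.56 ± 0.24, and -0.34 without vehicle replicate 5) and Tef, a relative of Dbp (-0.33 ± 0.14), also had p under 0.05. Bmal1, the activator that peaks in the opposite phase, read 4.31, 9.15, 2.71, 7.86 and 2.48 CPM with vehicle and 4.25, 11.8, 4.69, 7.54 and 10.3 CPM with Cmpd17b. The same vehicle replicates 3 and 5 were the lowest for Bmal1, and its difference was 0.54 ± 0.38, and 0.36 without vehicle replicate 5. Nr1d1, another repressor, had -0.09 ± 0.12.

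Of the 21 clock genes tested, 4 had p under 0.05 with a lower level, 0 with a higher one, and the median was -0.06. With vehicle replicate 5 left out, the count was 2, and without vehicle replicates 1 and 5 it was 0. The labels do not state the hour at which each heart was taken, and its part in these values was not tested.

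The cytosolic ribosomal protein genes shared their direction. All 76 had a negative difference, 15 had p under 0.05, and the median was -0.24. Over all genes, 7519 of 14547 were negative and 3.56% were lower with p under 0.05. Rps21 read 79.0, 63.8, 69.8, 62.4 and 107 CPM with vehicle and 57.0, 56.5, 48.4, 57.3 and 55.8 CPM with Cmpd17b. Rps20 read 73.5, 57.2, 64.0, 56.6 and 114 CPM with vehicle and 51.8, 53.5, 52.0, 51.9 and 52.8 CPM with Cmpd17b. For these genes and Rps6, 3 of the 76, the groups did not overlap. For Rps20 the treated libraries lay close together, and for Rps21 Cmpd17b replicate 3 lay below the other treated libraries. Vehicle replicate 5 stood high for both. Over all genes, 0.44% had all treated libraries below all vehicle libraries. The log2 differences were -0.47 ± 0.14 for Rps21 and -0.48 ± 0.17 for Rps20. Rpl36 had -0.50 ± 0.18 and Rps12 -0.46 ± 0.18. Without vehicle replicates 1 and 5 these 4 differences were -0.25, -0.18, -0.18 and -0.14.

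Leaving out vehicle replicate 5, 75 of the 76 were negative, 13 had p under 0.05 and the median was -0.12. Without vehicle replicate 1, 74 were negative, 5 had p under 0.05 and the median was -0.20. Without vehicle replicates 1 and 5, 56 were negative, 4 had p under 0.05 and the median was -0.04. Many of these genes have processed pseudogenes, so that their counts are uncertain in part.

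The difference between the groups also moved with the base composition and length of the transcript. The 13522 genes that matched a transcript were cut into 5 equal bins, and from the lowest to the highest GC content the median log2 difference was 0.11, 0.06, 0.00, -0.06 and -0.14. With vehicle replicate 5 left out, the lowest bin had 0.08 and the highest -0.08. In the bin with the shortest transcripts the median was -0.09, against 0.03 in the bin with the longest, and without vehicle replicate 5 these were -0.06 and 0.04. Vehicle replicate 5 deviated from the median of the other libraries by -0.19 in the lowest GC bin and 0.28 in the highest. Ribosomal protein transcripts are short, and the part of length and GC content in their differences was not tested.

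The negative differences of immune genes were smaller without vehicle replicate 5. Oas2, an antiviral gene induced by interferon, read 6.37, 5.02, 6.95, 3.79 and 12.04 CPM with vehicle and 3.86, 4.69, 3.58, 3.81 and 4.23 CPM with Cmpd17b. The treated values spanned a narrow range at the low end of the vehicle range, and Cmpd17b replicate 3 lay just below it. The difference was -0.76 ± 0.25, and -0.46 without vehicle replicate 5. Of the 42 interferon response genes, 37 were negative and 3 had p under 0.05, with a median of -0.25. With vehicle replicate 5 left out, 26 were negative, 1 had p under 0.05 and the median was -0.06, and without vehicle replicates 1 and 5 it was 0.02. Over all genes, 2.44% were lower with p under 0.05 without vehicle replicate 5.

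The MHC class II gene H2-Ab1 read 22.1, 24.4, 21.5, 17.8 and 31.4 CPM with vehicle and 21.1, 16.5, 16.8, 19.6 and 15.9 CPM with Cmpd17b. In all, 3 of 5 treated libraries lay below the vehicle range, and the difference was -0.38 ± 0.14, or -0.25 without vehicle replicate 5. H2-DMa, which loads peptides on class II molecules, had -0.61 ± 0.22 (-0.38 without vehicle replicate 5), and Cd74, the invariant chain, -0.34 ± 0.14. The class I genes H2-K1 and B2m had -0.28 ± 0.18 and -0.33 ± 0.20, and -0.07 and -0.08 without vehicle replicate 5. Of the 24 antigen presentation genes, 4 had p under 0.05, 3 without vehicle replicate 5 and 1 without vehicle replicates 1 and 5.

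Among leukocyte markers, those of macrophages and monocytes had mostly positive differences. Of 15 macrophage and monocyte markers tested, 11 were positive and 1 had p under 0.05 with a higher level, with a median of 0.13. Without vehicle replicate 1 there were 12 positive and 4 with p under 0.05, and without vehicle replicate 5 there were 10 of 16 positive and 0. Without both, 12 of 16 were positive and 4 had p under 0.05. The summed level of 16 macrophage and monocyte markers ran from 179.6 to 294 CPM with vehicle and from 223 to 261 CPM with Cmpd17b, so that the treated range lay inside the other. Cd163, a scavenger receptor of resident macrophages, had 7.30 ± 1.605 CPM with vehicle and 9.30 ± 1.13 CPM with Cmpd17b (SD, n = 5 each), a difference of 0.35 ± 0.15. The sum of 10 neutrophil markers ran from 3.59 to 11.1 CPM with vehicle and from 5.43 to 8.79 CPM with Cmpd17b. Of the 4 tested, 3 were positive, and 1 without vehicle replicate 5. Of 7 T, B and NK cell markers 4 were positive, with a median of 0.03. Of 5 mast cell markers 1 was positive, with a median of -0.30, and 4 without vehicle replicate 5. Il6ra, the interleukin-6 receptor, read 1.32, 1.06, 1.35, 1.15 and 0.272 CPM with vehicle and 1.51, 1.61, 1.52, 1.72 and 1.604 CPM with Cmpd17b. Its groups did not overlap, vehicle replicate 5 was far below the rest, and the difference was 0.63 ± 0.32, and 0.38 without vehicle replicate 5. Ptx3, a soluble pattern receptor, had 1.15 ± 0.48 with a highest value of 1.20 CPM, in Cmpd17b replicate 1. Of 35 genes for cytokines, chemokines and adhesion molecules it was the 1 gene with p under 0.05.

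Endothelial genes were high in vehicle replicate 5. Egfl7, a secreted factor of endothelial cells, read 55.6, 47.1, 50.0, 53.3 and 134 CPM with vehicle and 46.9, 50.0, 44.7, 47.4 and 48.4 CPM with Cmpd17b. Apart from vehicle replicate 5 the groups overlapped, and the difference went from -0.52 ± 0.25 to -0.12 without it. Endothelial nitric oxide synthase, Nos3, went from -0.52 ± 0.24 to -0.15. All 14 endothelial markers were negative with a median of -0.32, and 8 of 14 with a median of -0.06 without vehicle replicate 5.

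Cspg4, the pericyte proteoglycan NG2, read 16.4, 16.1, 14.3, 13.3 and 19.3 CPM with vehicle and 14.0, 13.9, 12.4, 10.1 and 10.4 CPM with Cmpd17b. In all, 3 treated libraries lay below the vehicle range, and the difference was -0.39 ± 0.13, or -0.31 without vehicle replicate 5. Of 11 smooth muscle and pericyte markers, 5 had p under 0.05 with a lower level, among them smooth muscle myosin Myh11 (-0.50 ± 0.19) and calponin Cnn1 (-0.69 ± 0.28). Myh11 had -0.27 and Cnn1 -0.48 without vehicle replicate 5, and -0.15 and -0.29 without vehicle replicates 1 and 5. The count was 3 without vehicle replicate 1 or without vehicle replicate 5, and 1 without vehicle replicates 1 and 5. Angpt1, the ligand by which mural cells steady the endothelium, had 0.53 ± 0.24, and 0.35 without vehicle replicate 5.

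**Figure D4:**
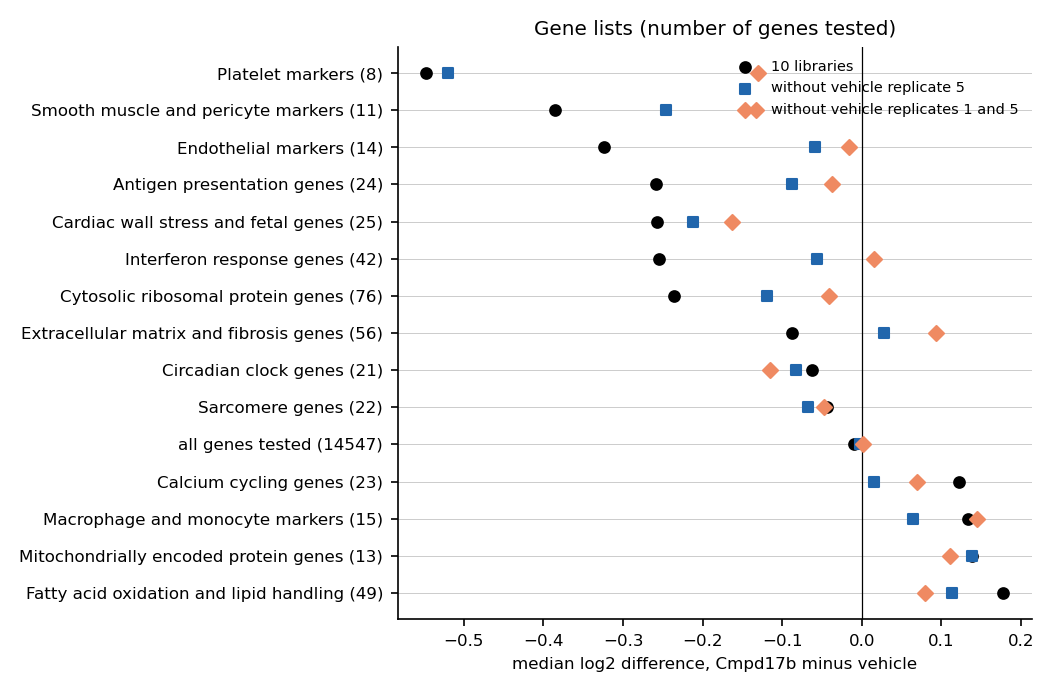
Median log2 difference (Cmpd17b minus vehicle) of 14 gene lists and of all genes tested, with the number of genes tested in parentheses. Circles show the 10 libraries, squares the fit without vehicle replicate 5, and diamonds the fit without vehicle replicates 1 and 5. Endothelial markers go from -0.32 to -0.06 and -0.02, while the wall stress and fetal list goes from -0.26 to -0.21 and -0.16.

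The direction of the matrix genes depended on which vehicle libraries were included. Col1a1, a chain of collagen I, read 37.7, 34.8, 28.7, 36.8 and 63.9 CPM with vehicle and 64.0, 44.0, 32.4, 31.1 and 29.4 CPM with Cmpd17b. The groups spanned the same range, each with 1 library near 64, and the difference was -0.01 ± 0.24 with a 95% interval from -0.53 to 0.51. Col3a1 had 0.01 ± 0.20, Postn, a matricellular protein of activated fibroblasts, -0.38 ± 0.28, and Timp1, an inhibitor of metalloproteinases, -0.50 ± 0.50. The difference was 0.22 for Col1a1 without vehicle replicate 5, and 0.30 for Postn and 0.41 for Timp1 without vehicle replicates 1 and 5.

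Plod2, the lysyl hydroxylase that hardens collagen cross-links, read 16.1, 17.7, 16.6, 17.6 and 17.0 CPM with vehicle and 24.1, 19.0, 18.8, 21.0 and 18.8 CPM with Cmpd17b. The groups did not overlap, and the difference was 0.26 ± 0.09, and 0.26 without vehicle replicate 5. Ltbp2, a microfibril protein, read 2.29, 1.91, 1.67, 1.94 and 3.65 CPM with vehicle and 2.45, 1.44, 0.527, 0.418 and 0.885 CPM with Cmpd17b. In all, 4 of 5 treated libraries lay below the vehicle range, and the difference was -1.002 ± 0.42. Of 56 matrix genes, 41 had a negative and 15 a positive difference, and the median was -0.09. At p under 0.05, 1 was higher and 5 were lower. With vehicle replicate 5 left out, 32 were positive and the median was 0.03, with 2 higher and 0 lower at that p. Without vehicle replicates 1 and 5, 39 were positive and the median was 0.09, with 5 higher and 1 lower.

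Genes of the systems that set blood pressure had few small p-values. Agt, the angiotensin precursor, had 4.59 ± 0.849 CPM with vehicle and 3.46 ± 1.18 CPM with Cmpd17b (SD, n = 5 each), a difference of -0.41 ± 0.21. The angiotensin receptor Agtr1a had 0.16 ± 0.17 and the converting enzyme Ace -0.28 ± 0.15, and without vehicle replicate 5 these were 0.01 and -0.11. Enpep, the aminopeptidase that degrades angiotensin II, was the 1 of 14 renin-angiotensin-aldosterone genes with p under 0.05 (0.34 ± 0.13). Of 27 adrenergic signalling genes Arrb2 was the 1 with p under 0.05, and Adra1b, an alpha-1 adrenoceptor, had 0.55 ± 0.28 with vehicle replicates 1 and 5 the lowest libraries, and 0.15 without both. Of 31 ion channel and gap junction genes and 23 calcium cycling genes, 0 had p under 0.05. The immediate early genes Fos and Egr1 had -0.52 ± 0.51 and -0.56 ± 0.39 (-0.21 for Egr1 without vehicle replicate 5, and -0.96 for Fos without vehicle replicates 1 and 5), Junb had -0.46 ± 0.18, and the glucocorticoid-induced Fkbp5 had 0.30 ± 0.13.

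Among the other genes with the smallest p, several separated the groups by small steps. They were picked by their p in these same libraries, so that their separation follows in part from the choice. Over all genes, 0.632% lay wholly above and 0.44% wholly below the vehicle libraries. Bcl6, a zinc finger repressor that restrains inflammatory genes and opposes PPAR targets, read 8.02, 7.99, 7.55, 10.8 and 6.46 CPM with vehicle and 9.44, 13.6, 11.2, 12.3 and 14.0 CPM with Cmpd17b. Only Cmpd17b replicate 1 lay under the highest vehicle library, and the difference was 0.57 ± 0.15. It was 0.49 without vehicle replicate 5 and 0.46 without vehicle replicates 1 and 5.

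Prrg1, a membrane protein with a Gla domain, read 7.12, 7.48, 8.72, 8.19 and 7.18 CPM with vehicle and 13.9, 7.999, 10.8, 10.9 and 11.7 CPM with Cmpd17b. In all, 4 of 5 treated libraries lay above all vehicle libraries, and the difference was 0.52 ± 0.14. Ints6, a subunit of the Integrator complex that processes RNA polymerase II transcripts, read 7.05, 9.94, 9.28, 8.89 and 9.57 CPM with vehicle and 11.3, 11.5, 11.9, 10.9 and 11.6 CPM with Cmpd17b. The groups did not overlap (0.36 ± 0.10).

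Tmem47, a small junctional membrane protein, read 14.6, 15.6, 13.6, 12.8 and 11.9 CPM with vehicle and 16.9, 15.9, 18.5, 16.4 and 18.0 CPM with Cmpd17b, again without overlap (0.32 ± 0.10). Other genes whose treated libraries all lay above all vehicle libraries were Pign, an enzyme of the GPI anchor pathway (0.37 ± 0.11), the elongation factor Ell2 (0.53 ± 0.17), the cilium transport gene Ift74 (0.47 ± 0.15) and the kinetochore gene Mis12 (0.34 ± 0.10). Armt1 (0.35 ± 0.11), Zfp60 (0.39 ± 0.12) and the helicase Dhx40 (0.26 ± 0.08) did the same. Taf7, a subunit of the general factor TFIID, lay above all vehicle libraries in 4 of 5 (0.34 ± 0.10).

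On the lower side, Krt80, a keratin, read 4.03, 3.35, 3.87, 3.93 and 3.44 CPM with vehicle and 3.03, 2.71, 2.64, 1.84 and 1.96 CPM with Cmpd17b. All treated libraries lay below all vehicle libraries, and the difference was -0.61 ± 0.17, with -0.64 without vehicle replicate 5. Mnt, a MAX-binding repressor that opposes MYC, read 15.01, 12.8, 14.9, 12.2 and 14.8 CPM with vehicle and 11.7, 10.5, 10.8, 11.5 and 9.54 CPM with Cmpd17b. Its groups did not overlap either (-0.36 ± 0.10, and -0.34 without vehicle replicate 5).

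Ackr4, a scavenger of the chemokines CCL19 and CCL21, read 6.55, 4.13, 3.49, 4.17 and 6.399 CPM with vehicle and 3.39, 2.74, 2.29, 2.43 and 3.62 CPM with Cmpd17b. In all, 4 of 5 treated libraries lay below the vehicle range (-0.77 ± 0.21, and -0.44 without vehicle replicates 1 and 5). Klhl36 (-0.64 ± 0.18), Tpgs1 (-0.37 ± 0.11), Pih1d1 (-0.32 ± 0.10), Slx1b (-0.56 ± 0.16) and Fam98c (-0.48 ± 0.15) had all treated libraries below all vehicle libraries. Iffo1 (-0.60 ± 0.18) and Muc3a (-0.90 ± 0.27) lay below all vehicle libraries in 4 of 5 treated libraries. Gamt, the last enzyme of creatine synthesis, did so in 3 of 5 (-0.79 ± 0.24). Without vehicle replicate 5, Slx1b and Iffo1 had -0.37 each, and without vehicle replicates 1 and 5 Pih1d1 had -0.21 and Gamt -0.52.

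Fst, encoding follistatin, which binds activins and myostatin, was present at low levels. It read 0.299, 0.0683, 0.220, 0.164 and 0.302 CPM with vehicle and 0.809, 0.435, 0.322, 0.737 and 0.719 CPM with Cmpd17b. The groups did not overlap, with Cmpd17b replicate 3 just above the highest vehicle library. The difference was 1.495 ± 0.41, and 1.65 without vehicle replicate 5.

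The same contrast was made in BPH/2J, to ask whether the difference between Cmpd17b and vehicle depends on the strain. Its libraries are other mice, so that the strains share no sample. Vehicle replicates 1 and 5 of BPN/3J are included. In the 20 batch 1 libraries together, with 15400 genes tested, edgeR called 0 genes in BPH/2J (0%), with 239 (1.55%) at an unadjusted p under 0.05, and called 0 genes (0%) for the difference of the Cmpd17b effect between the strains, with 714 (4.64%) at an unadjusted p under 0.05. DESeq2 and limma voom also called 0 for that difference. The smallest adjusted p was 0.0917 with DESeq2, that of Pdk4, and 0.183 with limma voom, that of another gene.

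The smallest p of edgeR for the difference between strains was also that of Pdk4. On the scale of the 20-library fit it read 125, 166, 233, 219.8 and 119.8 CPM with vehicle in BPN/3J and 519.8, 239, 172, 334 and 354 CPM with Cmpd17b. In BPH/2J it read 366, 561, 542, 681 and 444 CPM with vehicle and 349.9, 333, 136, 173 and 206 CPM with Cmpd17b. The drug groups of BPH/2J did not overlap and were ordered the opposite way to those of BPN/3J. The log2 differences were 0.91 ± 0.29 in BPN/3J and -1.12 ± 0.29 in BPH/2J, and they differed by 2.02 ± 0.41 (adjusted p = 0.855 with edgeR).

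Other genes with opposite signs were Prrg1 (0.52 ± 0.14 in BPN/3J and -0.28 ± 0.13 in BPH/2J) and the taurine transporter Slc6a6 (-0.34 ± 0.10 and 0.21 ± 0.10). The desaturase gene Scd4 had 0.60 ± 0.34 and -1.17 ± 0.32, and the lipid droplet enzyme Hsd17b11 0.21 ± 0.11 and -0.37 ± 0.11. For Fst the values were 1.495 ± 0.44 and -0.85 ± 0.42. The adjusted p of the difference was 0.855 for each of these genes. Apart from Fst, they and Pdk4 were picked by their p for the difference between strains. Their opposite signs follow in part from that choice.

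Several genes with negative differences in BPN/3J had estimates near 0 or above in BPH/2J. Nrgn had -1.98 ± 0.42 in BPN/3J and 0.31 ± 0.41 in BPH/2J. Nppa had 0.23 ± 0.38 in BPH/2J, Nppb 0.05 ± 0.19, Ankrd1 -0.01 ± 0.20 and Myh7 -0.09 ± 0.15. The difference between the strains was -1.65 ± 0.54 for Nppa, -0.62 ± 0.27 for Nppb, -0.65 ± 0.28 for Ankrd1 and -0.38 ± 0.22 for Myh7, each with an adjusted p of 0.855 from edgeR. Per2 had 0.37 ± 0.26 in BPH/2J and Krt80 0.39 ± 0.21. Bcl6, whose difference in BPN/3J was positive (0.57), had -0.10 ± 0.16 in BPH/2J. Nrgn, Krt80 and Bcl6 were picked by their p in BPN/3J, so that smaller differences in other mice follow in part from the choice. In the fit to BPN/3J alone, without vehicle replicates 1 and 5, Nrgn had -0.93 and Nppa -0.52.

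**Figure D5:**
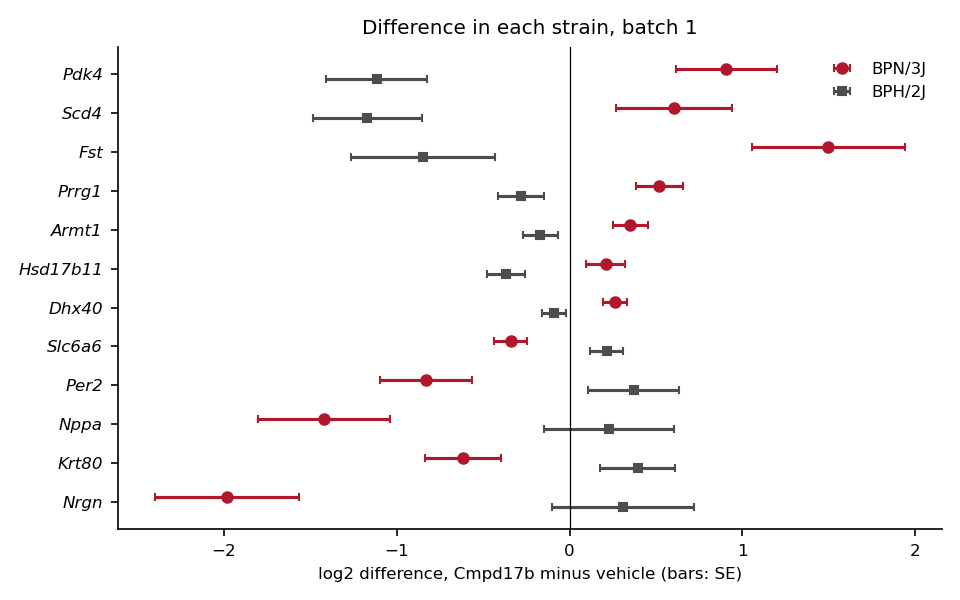
Log2 difference (Cmpd17b minus vehicle) with its SE for 12 genes in BPN/3J (circles) and BPH/2J (squares), from 1 fit to the 20 batch 1 libraries with 5 mice per group. Pdk4 lies at 0.91 in BPN/3J and -1.12 in BPH/2J, and Nrgn at -1.98 and 0.31, but no difference between the strains passed the threshold after adjustment.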

How the data were processed

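The deposited table of the authors holds expected counts for 40413 genes, of which 93.3% were whole; they were rounded. The submitters' processing notes name Trim Galore 0.6.7, STAR 2.7.9a and the build GRCm39. Counter, strand and annotation: not given in the sources used here, which leaves overlapping genes uncertain. Every column matched a sample (0 others). Groups came from the labels, with replicate numbers in sample order. P-values set the difference between groups against the spread between mice within groups. In the fit to 20 libraries that spread comes from both strains.

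Genes kept by filterByExpr were fitted with edgeR 4.0.16 (R 4.3.3, robust quasi-likelihood, TMM, 1 coefficient per group) with Benjamini-Hochberg adjustment across the genes of each fit (threshold 0.05). The SE is the difference divided by the square root of F. DESeq2 1.42.0 and limma 3.58.1 served as alternatives. Fits were checked on simulated data. The simulated counts held no library that stands apart, so the check does not cover a library such as vehicle replicate 5. GC content and length are those of the longest GENCODE transcript per symbol (release M21, 93% matched). Within groups, 0 of 20 pairs of libraries were identical.

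Genes named are, per direction, the 15 with the smallest p among genes with a proper symbol and an average of at least 1 log2 CPM, up to 4 per list, a fixed set, and the 10 with the smallest p between strains. Members, lists and this rule were chosen with earlier results of these data known. Promoter motifs were to be described for called genes; none was called.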

Additional observations from a re-analysis of the deposited data

Results flagged for a closer look

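In groups of 5, a library was singled out where its gap to the nearest other library took more than 0.71 of the range of its group (Dixon's test at the 95% level). This happened in 20 of the 122 groups looked at. Some of the genes were picked by their p in these libraries, and some lists hold the same genes. The count can therefore not be set against a chance rate.

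Among vehicle libraries, replicate 1 was high for Nppb (596 CPM), Ankrd1 (725 CPM), Nrgn (9.21 CPM) and Ppbp (2.89 CPM). Vehicle replicate 5 was high for Myh7 (2129 CPM), Col1a1 (63.9 CPM) and Egfl7 (134 CPM) and low for Il6ra (0.272 CPM). It was also high for the summed endothelial (3693 CPM), mast cell (21.6 CPM) and mesothelial and epicardial markers (12.8 CPM), had the lowest median rank correlation (0.955) and lay at 80.3 on the first principal component. Vehicle replicate 2 was high for the summed hepatocyte markers (143 CPM).

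Among Cmpd17b libraries, replicate 5 was low for Nppa (73.9 CPM) and for the summed atrial markers (154 CPM), a list that holds Nppa. Replicate 2 was high for Myh7 (1412 CPM) and for the summed cardiomyocyte markers (52879.7 CPM). Replicate 3 was low for Rps21 (48.4 CPM), and replicate 1 had the most genes detected (19901).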

How the results depend on the processing

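edgeR, DESeq2 and limma voom, other scalings and filters, larger sets of libraries and leaving out each library in turn gave 0 genes past the threshold in each of 21 alternatives. The number of genes with an unadjusted p under 0.05 moved more. It was 259 higher and 518 lower with all 10 libraries, and 412 higher with voom. It was 442 and 940 of 24468 genes without a filter on low counts, and 778 and 1167 of 15400 in the fit to 20 libraries. In the fit to 25 libraries with a batch term it was 581 and 925 of 15543. Leaving out 1 library gave 128 to 357 higher and 289 to 834 lower. Without vehicle replicates 1 and 5 together, an alternative chosen after seeing the data, it was 306 and 315. The causes were not tested.

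Of 94 genes followed, 86 kept their sign in all alternatives. The signs of the others turned as follows. With voom, Anxa1 had 0.17, Col1a1 0.19, Postn 0.17, Timp1 0.059 and Agtr1a -0.022, and the median of the extracellular matrix list was 0.060. With 26 libraries Col1a1 had 0.18, and with 25 libraries 0.22, with 0.0076 for the matrix list. Leaving out 1 library gave -0.21 to 0.076 for Anxa1, -0.24 to 0.22 for Col1a1, -0.13 to 0.16 for Col3a1, -0.15 to 0.72 for Angptl4, and -0.16 to 0.028 for the matrix list. Without vehicle replicates 1 and 5, Anxa1 had 0.24, Col1a1 0.26, Postn 0.30, Timp1 0.41, Agtr1a -0.067 and Pf4 0.045, and the interferon and matrix lists 0.016 and 0.094. No paired analysis was possible because the labels give animal identifiers and no number shared between the groups.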

Other observations

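Counts of small p-values in other programmes are to be read beside 1.78% higher and 3.56% lower over all genes. Of 32 cell cycle genes, 3 had an unadjusted p under 0.05 with a higher level and 0 with a lower one, and the median log2 difference was -0.02. It turned to 0.11 without vehicle replicate 1 and to 0.28 with 27 of 33 positive without vehicle replicates 1 and 5. Of 36 unfolded protein and heat shock genes, 0 were higher and 1 lower by the same measure, and of 30 genes of oxidative stress and NRF2, 1 was higher and 2 lower. Of 28 xenobiotic metabolism genes, 0 were higher and 3 lower. Of these 28, 6 were lower without vehicle replicate 1 and 0 without vehicle replicate 5. Of 21 complement genes 0 had an unadjusted p under 0.05, with 17 negative differences and a median of -0.15. Without vehicle replicates 1 and 5 there were 12 negative, with a median of -0.01. Of 24 autophagy and protein turnover genes, 20 had a positive difference with a median of 0.12, and 0.01 without vehicle replicate 5.

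Transcripts of liver were listed at low levels. Serpina1a, a secreted antiprotease of hepatocytes, had a log2 difference of -3.63 and the plasma protein gene Ahsg one of -0.77, both with an adjusted p of 0.688 or more from edgeR, while the summed hepatocyte markers ran from 30.6 to 143 CPM with vehicle and from 38.2 to 43.96 CPM with Cmpd17b. The part of tissue carried over between organs was not tested.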
